A study of Mus musculus with 6 samples.

Results

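The Ms4a genes encode a family of small proteins that cross the membrane several times, and the genes described here are its members Ms4a4a, Ms4a4c, Ms4a6b, Ms4a6c, Ms4a6d, Ms4a7 and Ms4a14 in mouse bone marrow-derived macrophages. These 7 genes were chosen by symbol, with their level and response in the same 6 libraries already known, from 19 genes whose symbols begin with Ms4a and from 55335 genes in the table. Their levels and differences between the groups are therefore given as a description: no p-value is printed for them, and where the threshold of the fit over all genes is mentioned it only sorts them and supports nothing. Levels are in FPKM, fragments scaled by transcript length and by the depth of the library, so that genes can be compared.

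Macrophages were grown for 6 days from the marrow of male wild-type C57BL/6 mice aged 6 to 8 weeks. All 6 cultures were given, for 4 h, conditioned medium (CM) collected from acinar cells that had been exposed for 5 h to caerulein, a secretagogue peptide, at 200 nM. The 3 independent cultures of the CM group had no further agent. The 3 of the CM + 4OI group also had 4-octyl itaconate (4OI) at 200 µM, an itaconate derivative made to enter cells. Whether the cultures came from separate mice is not stated, so a p-value measures only the spread between these cultures. Each difference is thus that of 4OI given on top of conditioned medium, and macrophages without conditioned medium, or with 4OI alone, were not analysed here.

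The family is best known for CD20 (Ms4a1) on B cells and for the beta chain of the high-affinity IgE receptor (Ms4a2) in mast cells. In macrophages several Ms4a proteins act as partners of other membrane receptors. Human MS4A4A is a surface marker of macrophages polarized by interleukin-4 or glucocorticoid and associates with the beta-glucan receptor Dectin-1 (Clec7a), mouse Ms4a6d has been described as a partner of the complement receptor Vsig4 in restraint of the Nlrp3 inflammasome, and variation in the human MS4A cluster is associated with soluble TREM2.

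The mouse Ms4a genes formed 1 cluster of 678.6 kb (chr19:10962293-11640851, GRCm38, GENCODE M21), and the 7 members lay together within 303.6 kb of it. The other 12 Ms4a genes were at or near 0. Ms4a5, Ms4a10, Ms4a12, Ms4a13, Ms4a15 and Ms4a18 were listed at 0 in all 6 libraries, and the other 6 did not exceed 0.655 FPKM in any library. Those 6 included Ms4a1, Ms4a2 and Ms4a3, a gene of granulocyte progenitors. All 7 members passed the filter of a mean of at least 1 FPKM over the 6 libraries, which left 10468 genes for the fit.

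In the CM group Ms4a6d was the most abundant member at 392 ± 18.4 FPKM (SD, n = 3), and its mean over all 6 libraries was above that of 99.1% of tested genes. Ms4a6c (231 ± 21.9 FPKM, n = 3) and Ms4a4a (226 ± 32.2 FPKM, n = 3) followed with overlapping ranges. Ms4a4c came next at 119 ± 9.60 FPKM (n = 3). Ms4a7 (83.1 ± 8.59 FPKM, n = 3) and Ms4a6b (71.9 ± 8.97 FPKM, n = 3) overlapped, and Ms4a14 was lowest at 30.3 ± 3.29 FPKM (n = 3). With 4OI the order from the top was Ms4a6d, Ms4a6c, Ms4a4a, Ms4a7, Ms4a6b, Ms4a14 and Ms4a4c. The ranges of Ms4a6c and Ms4a4a overlapped there, as did those of Ms4a4a and Ms4a7. Ms4a4c had moved from the fourth place to the last.

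Of the 7 members, 5 were past the threshold of the fit over all tested genes (limma, Benjamini-Hochberg adjusted p under 0.05) in the lower direction and 0 in the higher direction. By the same criterion 13.2% of tested genes were lower with 4OI and 19.3% were higher (32.5% in either direction), and since this contrast was known when the members were chosen, nothing is read from their count. In 6 of 7 members every CM + 4OI library lay under every CM library, as it did for 17.8% of tested genes, and in 0 members was every CM + 4OI library above every CM library, as in 31.2% of tested genes. The median log2 fold change, on the scale of log2(FPKM + 1), was -0.76 over the members and 0.06 over all tested genes. In bulk RNA, fewer cells of a type and less RNA per cell cannot be told apart.

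Ms4a4c (ENSMUSG00000024675, chr19:11404770-11427246, plus strand) differed most of the 7. It read 129.7, 111 and 117 FPKM in CM replicates 1, 2 and 3 and 23.5, 16.3 and 17.5 FPKM in CM + 4OI replicates 1, 2 and 3. The groups were far apart, and the means of 119 ± 9.60 and 19.1 ± 3.88 FPKM (n = 3 each) gave a 6.24-fold lower level. On the log2 scale the difference was -2.59 (SE 0.14), the 11th lowest value among the tested genes. Between cultures of the same replicate number the CM + 4OI level was 0.147 to 0.182 of the CM level.

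Ms4a4a (ENSMUSG00000101389, chr19:11375523-11392790, plus strand), the mouse counterpart of the macrophage marker MS4A4A, lies next to Ms4a4c. It read 260.5, 220.2 and 197 FPKM in CM replicates 1 to 3 and 128, 99.0 and 86.9 FPKM in CM + 4OI replicates 1 to 3. Replicate 1 was high and replicate 3 low in both groups, yet the groups did not overlap. The level with 4OI was 2.16-fold lower (104.7 ± 21.2 FPKM against 226 ± 32.2 FPKM, n = 3 each), with a log2 fold change of -1.11 (SE 0.16).

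**Figure D1:**
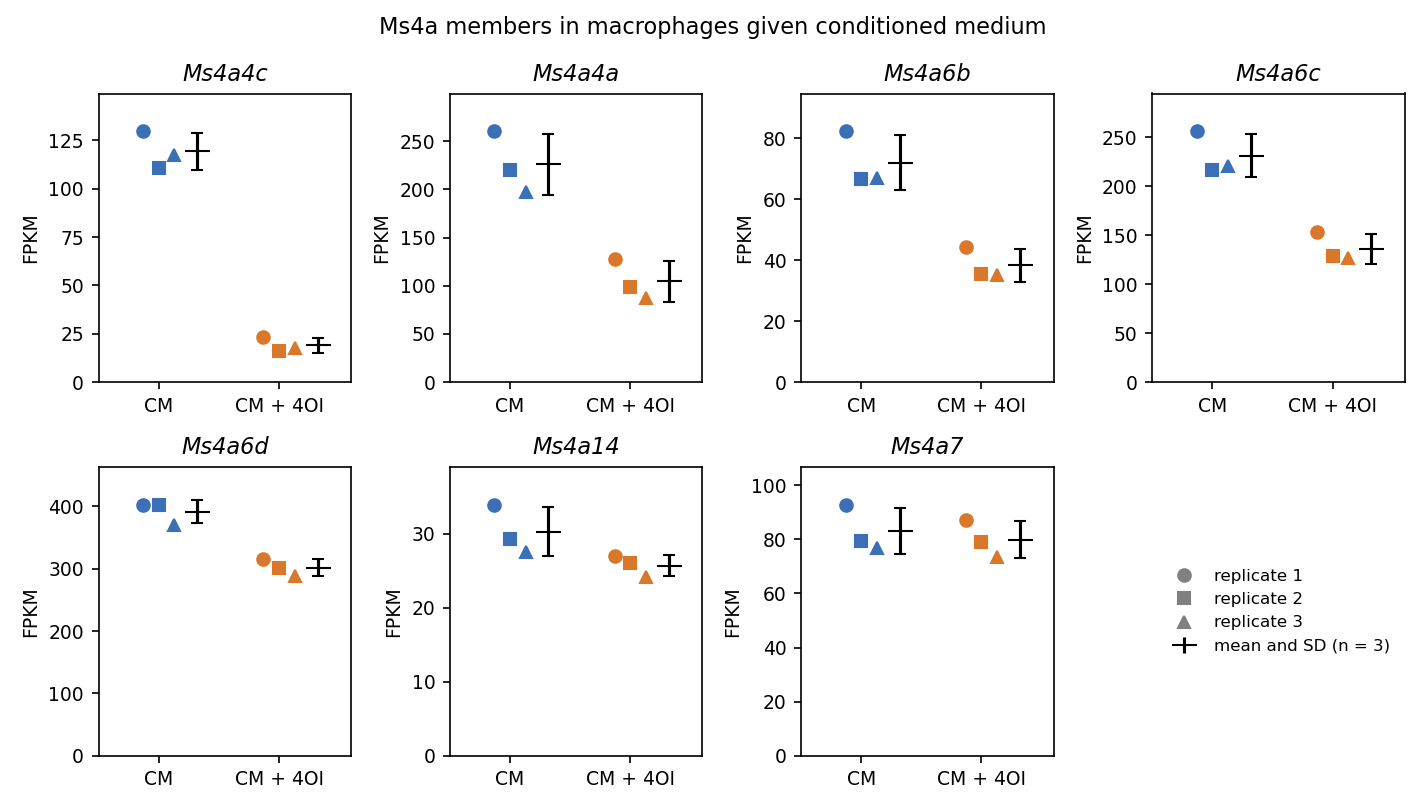
FPKM (vertical axes, each from 0) of the 7 members in the 3 CM and 3 CM + 4OI libraries, with one panel per gene; symbols mark replicate numbers, and the bar gives the mean and SD of each group. The groups are apart in 6 panels, from Ms4a4c at 6.24-fold to Ms4a14 at 1.18-fold, and overlap in the panel of Ms4a7.

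The paralogs Ms4a6b, Ms4a6c and Ms4a6d form a subgroup of similar sequence. Transcript identity was 89.4% between Ms4a6b and Ms4a6c over 1541 aligned bases. It was 81.3% between Ms4a6c and Ms4a6d over 921, and 78.7% between Ms4a6b and Ms4a6d over 1335. Bases opposite a gap are left out of these shares. Ms4a6b (ENSMUSG00000024677, chr19:11516512-11531256, plus strand) read 82.3, 66.6 and 66.9 FPKM with CM and 44.5, 35.5 and 35.0 FPKM with CM + 4OI, in the order of the replicates. That is 1.88-fold lower, with a log2 fold change of -0.89 (SE 0.12) and no overlap.

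Ms4a6c (ENSMUSG00000079419, chr19:11469366-11482192, plus strand) read 256, 216 and 221 FPKM with CM and 153, 129 and 126.5 FPKM with CM + 4OI. Its level with 4OI was 1.70-fold lower and its log2 fold change was -0.76 (SE 0.10). Again replicate 1 was the highest in both groups and the groups did not overlap. Exons of BE692007, a gene on the opposite strand, covered 53.1% of the exon bases of Ms4a6c. The sources used here do not say whether strand was used in counting, so reads from the shared bases may belong to either gene. BE692007 moved the same way, from 28.6 ± 1.89 to 14.8 ± 1.71 FPKM (n = 3 each; log2 fold change -0.91, limma adjusted p = 0.000522).

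Ms4a6d (ENSMUSG00000024679, chr19:11586604-11604849, minus strand), the partner of Vsig4, had the narrowest spread relative to its level. It read 403, 402 and 370.3 FPKM with CM and 315, 302 and 288 FPKM with CM + 4OI. The level with 4OI was 1.30-fold lower (302 ± 13.4 FPKM, n = 3), with a log2 fold change of -0.37 (SE 0.05). The groups did not overlap, but the difference was the smallest among the 5 members past the threshold.

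Reads could be shared between paralogs only over short stretches. No transcript of a member shared a run of 150 bases with another gene on the same strand. Runs of 50 bases were shared with Ms4a4b by 7.73% of those in Ms4a4c, with Ms4a6b by 5.85% of those in Ms4a6c, and with Ms4a6c by 2.57% of those in Ms4a6b. Ms4a4b itself did not exceed 0.655 FPKM.

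Ms4a14 (ENSMUSG00000099398, chr19:11301249-11314454, minus strand) and Ms4a7 (ENSMUSG00000024672, chr19:11321039-11336146, minus strand), a gene of tissue macrophages, are neighbours at the other end of the group. Ms4a14 read 33.9, 29.3 and 27.6 FPKM with CM and 26.9, 26.0 and 24.1 FPKM with CM + 4OI. The groups were narrowly apart and the level was 1.18-fold lower (log2 fold change -0.23, SE 0.08), which was not past the threshold. With the replicate number as a block in the fit it was past the threshold, in a fit in which 14.5% of tested genes were lower and 22.3% higher. Ms4a7 read 92.9, 79.3 and 77.0 FPKM with CM and 87.3, 79.0 and 73.5 FPKM with CM + 4OI. Its groups overlapped, with means of 83.1 ± 8.59 and 79.9 ± 6.92 FPKM (n = 3 each) and a log2 fold change of -0.05 (SE 0.09).

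The members' responses were set against their position and strand. The 4 members on the plus strand, Ms4a4a, Ms4a4c, Ms4a6c and Ms4a6b, had log2 fold changes from -2.59 to -0.76. The 3 on the minus strand, Ms4a14, Ms4a7 and Ms4a6d, had values from -0.37 to -0.05 and lay on either side of the plus-strand block. Ms4a4b and Ms4a4d, which lie on the plus strand within the block, were too low to be tested. BE692007, no Ms4a gene, lies on the minus strand within the block. Its log2 fold change was -0.91, and it may share reads with Ms4a6c.

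**Figure D2:**
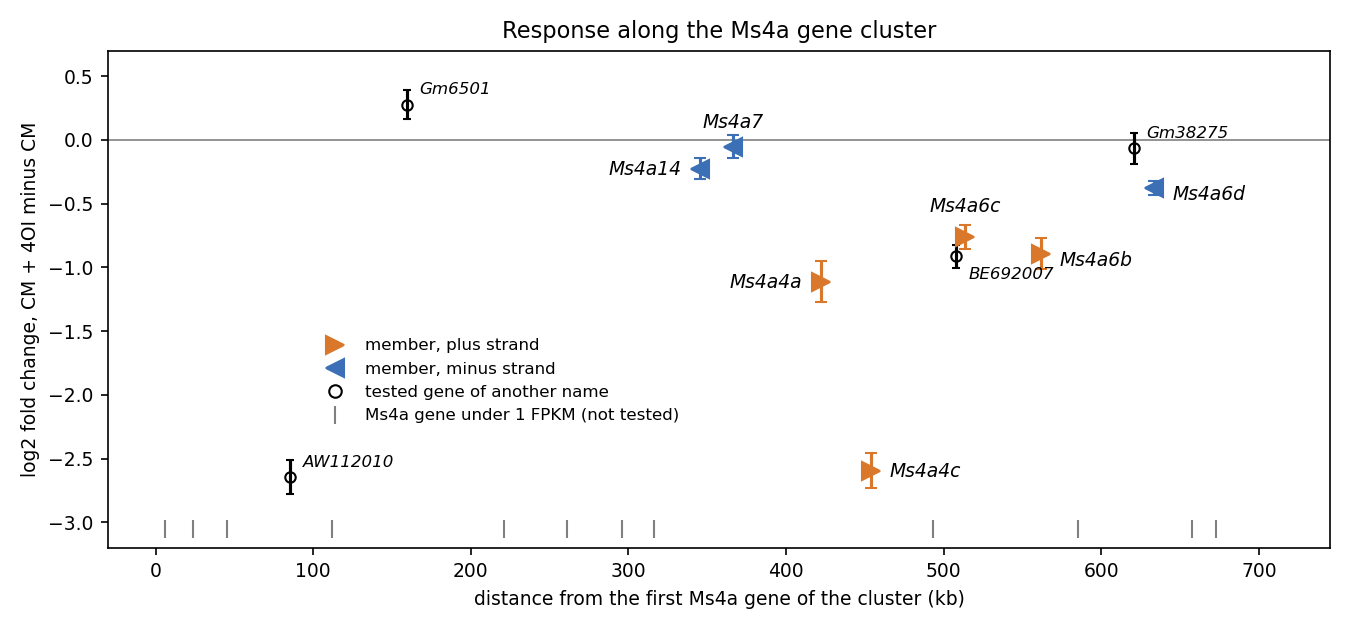
Log2 fold change (CM + 4OI minus CM, with SE bars) of each gene against its distance in kb from the first Ms4a gene of the cluster; triangles are members and point in the direction of transcription, open circles are tested genes of other names, and grey ticks mark Ms4a genes under the filter. The 4 plus-strand members lie between -2.59 and -0.76 and the 3 minus-strand members between -0.37 and -0.05. Among genes of other names, AW112010, far from the members, lies at -2.64. BE692007, on the minus strand among the plus-strand members, lies at -0.91.

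Summed over the 7 members the level was 1153 ± 93.9 FPKM with CM (range 1077 to 1258, n = 3) and 706 ± 65.6 FPKM with CM + 4OI (range 652 to 779, n = 3), or 0.612 of the CM level. Ms4a4c supplied 10.4 ± 0.53% of that sum with CM and 2.69 ± 0.32% with 4OI. Ms4a4a went from 19.5 ± 1.21% to 14.7 ± 1.59%. The shares of Ms4a6d and Ms4a7 were larger with 4OI, at 42.9 ± 2.11% against 34.0 ± 1.89% and at 11.3 ± 0.16% against 7.19 ± 0.17%. Ms4a6c held 20.0 ± 0.70% with CM and 19.3 ± 0.48% with 4OI, Ms4a6b 6.23 ± 0.31% and 5.42 ± 0.27%, and Ms4a14 2.62 ± 0.07% and 3.65 ± 0.17% (n = 3 each). The mixture of Ms4a transcripts with 4OI was thus richer in Ms4a6d, Ms4a7 and Ms4a14 and poorer in Ms4a4c and Ms4a4a. These are shares of a smaller sum, and no member had a higher mean level with 4OI.

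**Figure D3:**
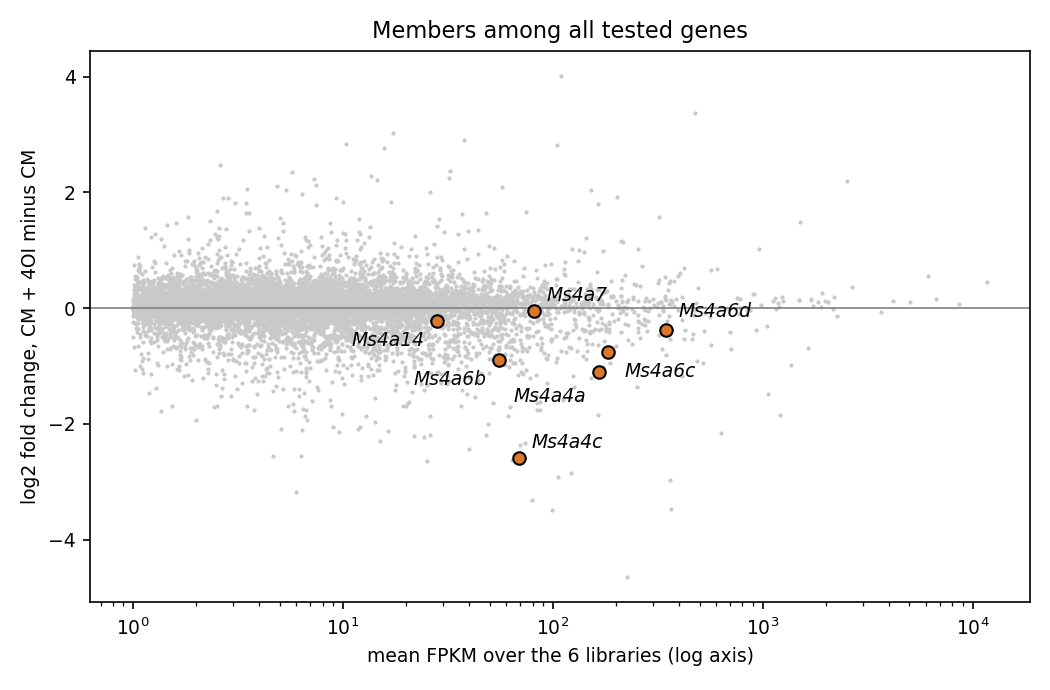
Log2 fold change (CM + 4OI minus CM) against the mean FPKM of the 6 libraries on a log axis, for all 10468 tested genes (grey) and the 7 members (orange). The members are abundant genes that lie at or under 0, with Ms4a4c at -2.59 far under the others.

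Promoter windows from RefSeq (GRCm38.p6, 250 bases before to 50 after each start, 300 bases in all) were found for 6 of 7 members, with 7 windows because Ms4a7 has a pair of starts; Ms4a6d was not in the table. The windows were searched on both strands for the letters of an interferon response element core (GAAANNGAA, in 8.56% of 32851 windows of all genes), a STAT site (TTCNNNGAA, 8.30%), an antioxidant response element core (TGANNNNGC, 41.3%), an NF-kB site (GGGACTTTC, 0.353%) and a PU.1 core (AGGAAGT, 9.35%). A match says only that these letters are there. The upstream bases of Ms4a6c and Ms4a6b are shown because they resemble each other, and those of Ms4a4c and of the first start of Ms4a7 because these members had the largest and the smallest difference; capitals mark matched letters, each line runs 5′ to 3′ towards the start, and bases in annotated exons are left out.
Ms4a6c (chr19:11469118-11469365, plus strand): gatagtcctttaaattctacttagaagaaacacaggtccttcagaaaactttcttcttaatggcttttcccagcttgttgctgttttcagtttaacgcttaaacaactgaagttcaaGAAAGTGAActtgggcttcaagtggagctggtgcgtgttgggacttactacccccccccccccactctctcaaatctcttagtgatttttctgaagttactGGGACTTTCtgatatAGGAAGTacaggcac
Ms4a6b (chr19:11518309-11518452, plus strand): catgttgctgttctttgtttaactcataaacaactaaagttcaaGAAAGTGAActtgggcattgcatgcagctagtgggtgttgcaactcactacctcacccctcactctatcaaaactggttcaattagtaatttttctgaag
Ms4a4c (chr19:11407411-11407660, plus strand): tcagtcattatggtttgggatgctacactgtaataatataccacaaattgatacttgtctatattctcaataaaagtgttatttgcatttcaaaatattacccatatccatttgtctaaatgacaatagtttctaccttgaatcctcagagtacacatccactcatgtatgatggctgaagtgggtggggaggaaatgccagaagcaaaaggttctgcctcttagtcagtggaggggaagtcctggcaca
Ms4a7 (chr19:11336147-11336396, minus strand): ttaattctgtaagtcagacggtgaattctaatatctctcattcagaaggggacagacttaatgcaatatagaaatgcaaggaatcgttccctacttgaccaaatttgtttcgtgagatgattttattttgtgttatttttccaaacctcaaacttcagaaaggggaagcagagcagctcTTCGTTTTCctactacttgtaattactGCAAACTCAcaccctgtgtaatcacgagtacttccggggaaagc

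Of the members, Ms4a6c and Ms4a6b had the most similar windows. Their 250 upstream bases were identical at 149 of 175 aligned positions (85.1%), with bases opposite a gap left out. Other pairs of member windows had 56.2% to 65.4% by this measure. A run of 48 identical bases lay from -49 to -2 in Ms4a6c and from -118 to -71 in Ms4a6b, counted from the start. No other pair of member windows shared a run of more than 9 bases. Both held, in the same order, the interferon core (GAAAGTGAA, from -133 in Ms4a6c and from -206 in Ms4a6b), the NF-kB letters (from -32 and from -101) and the PU.1 letters (from -17 and from -86). Ms4a6b also held PU.1 letters on the reverse strand (ACTTCCT, from -43), which Ms4a6c did not. The NF-kB and PU.1 matches of Ms4a6b lie in bases that GENCODE places in an exon of a longer transcript. The printed line therefore ends at -107.

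Among all windows, 13 (0.04%), of 13 genes, held both the interferon core and the NF-kB letters, and Ms4a6b and Ms4a6c were among those genes. Since the windows of Ms4a6b and Ms4a6c resemble each other, their matches are not separate finds. The other members had few matches. The Ms4a7 window shown held the interferon core on the reverse strand (TTCGTTTTC, from -71) and antioxidant letters (from -44), and its other window held an interferon core (GAAAAGGAA, from -148). Ms4a4a held only antioxidant letters (from -77), and Ms4a4c and Ms4a14 held none of the 5. No matches overlapped. The Ms4a4c window, like that of Ms4a6b, lies inside the gene as GENCODE draws it, since other transcripts start further upstream.

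**Figure D4:**
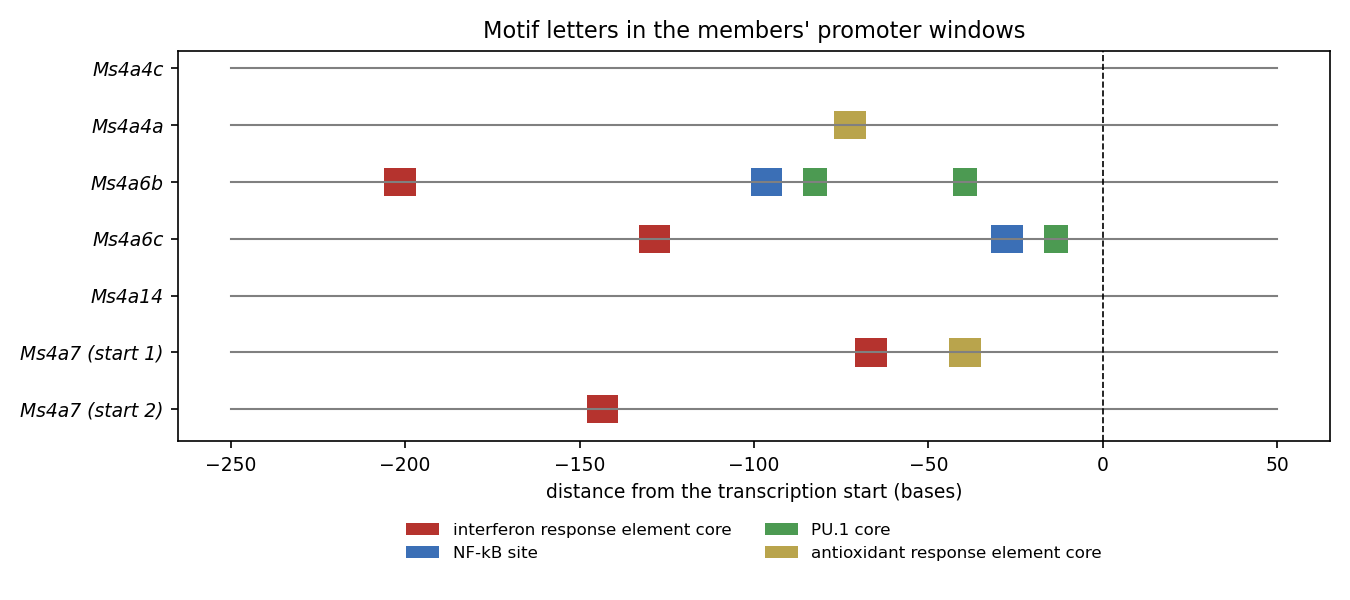
Position of matched letters in the 7 promoter windows of 6 members, in bases from the transcription start (dashed line); each grey line is one window of 300 bases and each coloured block one match on either strand. Ms4a6b and Ms4a6c hold the same 3 kinds of match in the same order, with a further PU.1 match in Ms4a6b. Ms4a4c and Ms4a14 hold none.

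Replicate 1 was the highest of its group for all 7 members, in both groups. Of all 10468 tested genes, 1532 (14.6%) had this order. The members stood 0.04 to 0.21 above the CM mean in CM replicate 1 (median 0.16) and 0.06 to 0.31 above the CM + 4OI mean in CM + 4OI replicate 1 (median 0.18), on the scale of log2(FPKM + 1). All tested genes had a median deviation of -0.01 in each of these libraries. Tmem176a and Tmem176b, distant relatives of the family on chromosome 6, deviated more, by 0.44 and 0.33 in CM replicate 1. Among macrophage genes, Csf1r (the receptor of the growth factor CSF1) deviated by 0.15 there, Adgre1 (F4/80) by 0.08, Cd68 by -0.03 and Mertk by -0.09. For the 5 members past the threshold the difference between the group means was larger than the range of either group, and for Ms4a7 and Ms4a14 it was not.

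**Figure D5:**
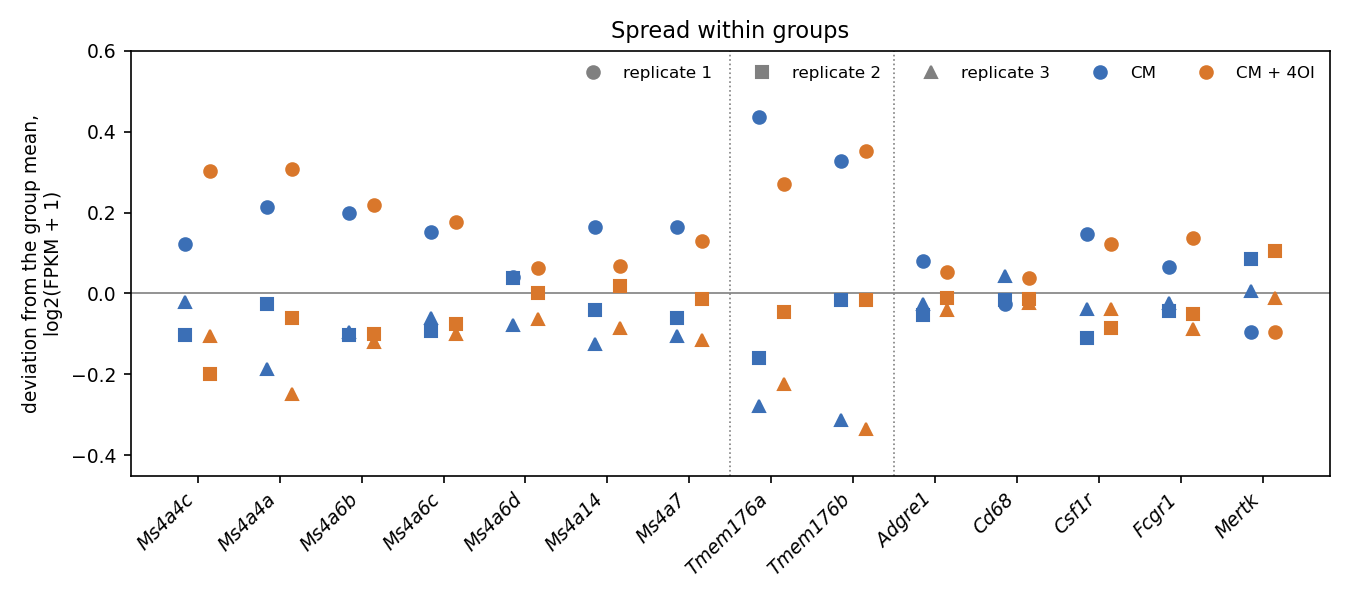
Deviation of each library from its group mean on the log2(FPKM + 1) scale for the 7 members, for Tmem176a and Tmem176b, and for 5 macrophage genes; colours mark groups and symbols mark replicate numbers. Circles, replicate 1, are the highest symbols of their colour for every member and for both Tmem176 genes, and the lowest for Mertk.

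Of the 2 relatives outside the cluster, Tmem176a read 8.04 ± 2.53 FPKM with CM and 7.17 ± 1.44 FPKM with CM + 4OI (n = 3 each; log2 fold change -0.12, limma adjusted p = 0.697). Tmem176b read 18.6 ± 4.36 and 17.8 ± 4.49 FPKM (n = 3 each; log2 fold change -0.06, limma adjusted p = 0.857). Neither passed the test, and replicates of each differed by more than the groups did.

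For each member the nearest genes over the 6 libraries were sought among 5862 candidates of at least 5 FPKM. The measure was the root mean square difference of their centred log2(FPKM + 1) values. These values were not scaled, so near genes are those with a group difference of like size. Whether near genes share their control was not tested. AW112010 (0.104) and Fgl2, which encodes a fibrinogen-like secreted protein (0.111), were nearest to Ms4a4c. Sdc4, a cell-surface proteoglycan (0.065), and Gbp6, a guanylate-binding protein (0.087), were nearest to Ms4a4a. Junb, a subunit of AP-1 (0.023), and Dram1 (0.039) were nearest to Ms4a6c, the hexokinase gene Hk2 (0.047) and BE692007 (0.055) to Ms4a6b, and Eif4e3 and Rrbp1 (0.025 each) to Ms4a6d. Selenop, the selenium carrier (0.031), and Mtmr10 (0.045) were nearest to Ms4a7, and Pnrc1 (0.026) and the repressor gene Bcl6 (0.029) to Ms4a14. Among the members the closest pair was Ms4a6b and Ms4a6c (0.073), and Ms4a4c and Ms4a7 were farthest apart (1.28).

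Genes around the members did not share 1 response. Of 26 genes of other names inside the cluster or among the 5 nearest on either side, 14 were tested. Of these 4 fell, 2 rose and 8 did not pass the test, with a median log2 fold change of -0.01. Over all tested genes 13.2% fell and 19.3% rose. Inside the cluster 4 were tested, of which 2 fell, 0 rose and 2 did not pass (median -0.49). On either side 10 were tested, of which 2 fell, 2 rose and 6 did not pass (median 0.05). BE692007 fell inside the cluster and may share reads with Ms4a6c. AW112010, inside the cluster but outside the stretch that holds the members, fell from 43.9 ± 5.67 to 6.19 ± 1.06 FPKM (n = 3 each; log2 fold change -2.64, limma adjusted p = 5.08e-05). Its values were 49.9, 38.7 and 42.9 FPKM with CM and 7.31, 6.07 and 5.19 FPKM with CM + 4OI, a size of change like that of Ms4a4c. Outside the cluster Osbp, an oxysterol-binding protein, rose from 14.4 ± 0.43 to 19.1 ± 0.52 FPKM (n = 3 each; log2 fold change 0.38, limma adjusted p = 0.00102). Tmem132a rose from 55.9 ± 13.9 to 89.1 ± 7.01 FPKM (n = 3 each; log2 fold change 0.69, limma adjusted p = 0.0304), but not past the threshold when CM + 4OI replicate 1 (0.0538), 2 (0.0883) or 3 (0.0907) was left out, with no filter (0.0908), and when both libraries numbered 2 were left out (0.0637). The other 2 genes that fell, Ccdc86 and Stx3, were named after their values were seen, and Stx3 lost its call in 6 of 15 settings, 4 of which left out a single library (replicates 1 and 3 of the CM group, replicates 1 and 2 of the other).

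Known partners and co-receptors of Ms4a proteins moved in both directions. Of 10 such genes 9 were tested, of which 3 rose, 2 fell and 4 did not pass the test (median log2 fold change 0.12, against 0.06 over all tested genes). Over all tested genes 19.3% rose and 13.2% fell. The inflammasome sensor gene Nlrp3 fell from 19.1 ± 4.30 to 10.9 ± 2.01 FPKM (n = 3 each; log2 fold change -0.74, limma adjusted p = 0.0197). Syk, the kinase that carries the signal of Dectin-1, rose from 42.5 ± 1.49 to 55.7 ± 2.37 FPKM (n = 3 each; log2 fold change 0.38, limma adjusted p = 0.00152).

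Clec7a, the gene of Dectin-1, rose from 215 ± 27.7 to 283 ± 26.5 FPKM (n = 3 each; log2 fold change 0.40, limma adjusted p = 0.0362), while Ms4a4a was lower. The call on Clec7a was lost in 7 of 15 alternative settings: without CM replicate 1 (limma adjusted p = 0.0625), CM replicate 2 (0.0581), CM + 4OI replicate 2 (0.099) or CM + 4OI replicate 3 (0.108), without replicate 2 of both groups (0.131), with no filter (0.105) and under median-of-ratios scaling (0.069). That on Nlrp3 was lost in 4, without CM + 4OI replicate 2 or 3 (0.0662 each), without replicate 2 of both groups (0.0934) and with no filter (0.0636). Trem2, named after its values were seen, rose from 72.0 ± 2.91 to 84.2 ± 3.22 FPKM (n = 3 each; log2 fold change 0.22, limma adjusted p = 0.0143), and this too was lost in 4 settings (0.0541 to 0.0903), among them those without CM + 4OI replicate 2 or 3. Without either of these libraries 1 gene of the list rose. Vsig4 was low, at 2.53 ± 0.57 and 2.94 ± 1.10 FPKM (n = 3 each), and did not pass the test (limma adjusted p = 0.711). Tyrobp, the adaptor of Trem2, was at 466 ± 16.1 and 466 ± 11.8 FPKM (n = 3 each; limma adjusted p = 0.99).

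Genes of interferon receptor signalling were mostly lower with 4OI. Of 12 genes, 9 fell, 0 rose and 3 did not pass the test, with a median log2 fold change of -0.44. Over all tested genes 13.2% fell and 19.3% rose. The list was chosen with earlier results of these data known, so nothing is read from its count. The transcription factor Irf1 fell from 39.0 ± 2.47 to 17.6 ± 1.19 FPKM (n = 3 each; log2 fold change -1.10, limma adjusted p = 9.22e-05). The kinase Jak2 fell by 0.68 on the log2 scale (limma adjusted p = 0.000617) and the type I interferon receptor chain Ifnar1 by 0.63 (limma adjusted p = 0.000938). Ifngr1, Jak1 and Irf9 did not pass the test. With the replicate number as a block 1 gene of the list, Ifngr1, rose (limma adjusted p = 0.0386), and under median-of-ratios scaling Jak1 and Irf9 fell (0.0326 and 0.0348).

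Of 10 myeloid factors 4 fell, 2 rose and 4 did not pass the test (median log2 fold change -0.14). Over all tested genes 13.2% fell and 19.3% rose. Maf, a factor of macrophage maturation, fell from 56.6 ± 4.31 to 24.3 ± 2.003 FPKM (n = 3 each; log2 fold change -1.19, limma adjusted p = 0.000117). Spi1, which encodes PU.1, fell by 0.39 on the log2 scale (limma adjusted p = 0.00605). Cebpa, an early myeloid factor, rose from 41.6 ± 2.15 to 78.8 ± 8.40 FPKM (n = 3 each; log2 fold change 0.90, limma adjusted p = 0.000466). Without any 1 library, 3 in place of 4 of these factors fell.

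The libraries had the markers of macrophages. All 6 macrophage markers reached 1 FPKM, with a summed level of 2106 to 2200 FPKM with CM and 1883 to 2013 FPKM with CM + 4OI. Of these, and named after their values were seen, Mertk fell from 23.3 ± 1.51 to 12.99 ± 0.97 FPKM (n = 3 each, log2 fold change -0.79, limma adjusted p = 0.000385). Fcgr1 fell from 541 ± 22.1 to 375 ± 31.9 FPKM (n = 3 each, log2 fold change -0.53, limma adjusted p = 0.0018). Adgre1, Cd68, Csf1r and Itgam did not pass the test. The sum counts both entries of the symbol Itgam, which moved in opposite directions. One read 56.2 ± 26.0 FPKM with CM and 64.0 ± 10.3 FPKM with CM + 4OI (n = 3 each, limma adjusted p = 0.575). The other read 89.95 ± 35.2 and 60.9 ± 11.9 FPKM (n = 3 each, limma adjusted p = 0.254). None of 6 B cell, 7 mast cell and basophil or 5 dendritic cell markers reached 1 FPKM in any library, and of 6 T and NK cell markers only Cd4 did. Of 7 neutrophil and granulocyte progenitor markers 4 did (summed 36.5 to 66.7 FPKM with CM and 41.5 to 52.6 FPKM with 4OI), as did 4 of 5 acinar cell markers (3.76 to 5.50 and 4.37 to 6.56 FPKM). The part of these levels in the members' differences was not tested. The fibroblast list, with 5 of 6 markers at 1 FPKM or more, stood at 52.9 and 29.8 FPKM in replicate 2 of the CM and CM + 4OI groups and at 5.86 to 9.24 FPKM in the other 4 libraries. Without replicate 2 of both groups the log2 fold changes were -2.55 for Ms4a4c, -1.09 for Ms4a4a, -0.89 for Ms4a6b, -0.77 for Ms4a6c, -0.36 for Ms4a6d, -0.25 for Ms4a14 and -0.08 for Ms4a7. The depth was sought from the step between low FPKM values, within a range of depths set beforehand. It was put at 18400000 to 25700000 fragments per library. This is a rough estimate, since only 38.8% to 41.3% of low values came within 0.1 of a whole number of fragments.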

How the data were processed

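Total RNA from 6 macrophage cultures was sequenced as paired reads of 150 bases on an Illumina instrument, per the labels' protocols. The authors deposited 1 table of FPKM values per gene. FastQC 0.11.2 and mm10 are named in the submitters' processing notes. No aligner, quantifier or strandedness is given in the sources used here. The authors' FPKM values were used as deposited, so differences are relative to all RNA in a library and no counting error can be given.

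Tested genes had a mean of at least 1 FPKM over the 6 libraries. They were tested by limma 3.58.1 under R 4.3.3, with its trend option, on log2(FPKM + 1). Benjamini-Hochberg adjustment covered all 10468 genes, and genes were called at an adjusted p under 0.05. The procedure was tried on simulated data with independent noise and few changed genes. That simulation held no deviation shared by replicate number, so it does not cover this feature of the data. A fold change on the log2(FPKM + 1) scale understates the change of low genes. Ratios are of mean FPKM. The members, gene lists and tests were chosen with earlier results of these data known. Named genes were all members, every tested relative and, in each list, the 4 called genes with the largest absolute log2 fold change. For each member the 2 genes nearest by centred values were also named. Any other gene is said to be named after its values were seen. Some genes of these lists are counted but not reported here by name. Cultures of the same replicate number deviated together from their group means (r = 0.344, 0.427 and 0.185 for numbers 1, 2 and 3, against 0.0262 at most for different numbers). What a number marks is not stated. The main fit did not use the numbers. It gave the calls and adjusted p-values wherever no other setting is named. The numbers entered only as a block in an alternative fit. Gene positions come from GENCODE M21, with 99.7% of gene IDs matched, and promoters from RefSeq (GRCm38.p6). Alternatives changed the pseudocount, filter, scaling, variance trend, replicate block and libraries.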

Additional observations from a re-analysis of the deposited data

How the results depend on the processing

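In 15 alternative settings 5 members were lower in each fit that left out 1 library and 5 or 6 in the others, while the share of all tested genes called lower ran from 5.08% with no filter to 18.1% at a mean of at least 5 FPKM. Over the 51 genes named with a difference or for their likeness, and these settings, 691 values kept direction and side of the threshold, 44 lost the call, 11 gained it (2 of them Ms4a14, under median-of-ratios scaling and with the replicate block) and 16 changed sign. The sign changes, none past the threshold, were of Ms4a7 (0.021 under quantile normalization, -0.118 to 0.029 without 1 library), Tmem176a (-0.263 to 0.095 without 1 library), Tmem176b (-0.237 to 0.106), Selenop (0.080 under quantile normalization, -0.174 to 0.0048 without 1 library), Mtmr10 (-0.068 to 0.021), Vsig4 (-0.044 to 0.373) and Tyrobp (0.128 under quantile normalization, 0.005 without replicate 2 of both groups, -0.023 to 0.026 without 1 library); the cause was not tested. Ms4a4c ranged from -2.75 to -2.49, Ms4a4a from -1.27 to -0.99, Ms4a6b from -1.003 to -0.79, Ms4a6c from -0.85 to -0.69 and Ms4a6d from -0.45 to -0.34. Over all genes 2020 rose and 1385 fell, 59.3% of calls higher, against 1371 and 1696, 44.7% higher, under median-of-ratios scaling and 2336 and 1523 with the replicate block. Without replicate 2 of both groups 1089 rose, and without 1 library 1311 to 1855 rose, the fewest without CM + 4OI replicate 2. Of the partners 1 rose under median-of-ratios scaling and without replicate 2 of both groups (1 to 3 without 1 library), and 1 fell with no filter and without replicate 2 of both groups (1 to 3 without 1 library). Of the neighbours 1 rose with no filter and without replicate 2 of both groups (1 to 3 without 1 library). With the replicate block 1 interferon signalling gene, Ifngr1, rose, and with no filter 1 other Ms4a gene, Ms4a8a, fell. The 12 Ms4a genes under 1 FPKM rest on few fragments, and 3 cultures a group limit the precision of each difference.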

Other observations

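Of the 13 genes whose promoter windows held both the interferon core and the NF-kB letters, 7 besides Ms4a6b and Ms4a6c were listed and 4 of these were tested. They were chosen by sequence after the members' windows had been seen. Of the 4 tested genes 3 fell, 0 rose and 1 did not pass the test. Over all tested genes 13.2% fell and 19.3% rose. Whether the letters bear on the response was not tested. Slamf8, a receptor of the SLAM family, fell from 27.3 ± 2.62 to 12.1 ± 1.13 FPKM (n = 3 each; log2 fold change -1.11, limma adjusted p = 0.000267), and kept this call in all 15 alternative settings. Oas1c fell from 3.28 ± 0.30 to 2.59 ± 0.20 FPKM (n = 3 each; limma adjusted p = 0.0481) and the deubiquitinase gene Cyld from 4.05 ± 0.19 to 3.46 ± 0.05 FPKM (n = 3 each; limma adjusted p = 0.0414), but these calls were lost in 8 and 9 settings, among them the fit with the replicate block (0.0799 and 0.0567), 5 and 6 of the 6 fits without 1 library, and the fit without replicate 2 of both groups. B2m, the light chain of MHC class I, was at 2357 ± 171 and 2154 ± 143 FPKM (n = 3 each) and did not pass the test (limma adjusted p = 0.233), except with the replicate block (0.0378) and under quantile normalization (0.00435), where it was lower.

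Ms4a8a, under the filter, was listed at 0.341, 0.539 and 0.322 FPKM with CM and at 0, 0.041 and 0.092 FPKM with CM + 4OI, with no overlap between the groups. Ms4a4b, next to Ms4a4c, read 0.655, 0.588 and 0.453 FPKM with CM and 0.375, 0.267 and 0.298 FPKM with CM + 4OI, also with no overlap. Gm5511, a neighbour inside the cluster, was at 0.973 ± 0.18 and 0.368 ± 0.13 FPKM (n = 3 each), just under the filter. The neighbour 4930526L06Rik, also inside the cluster and under the filter, was higher with 4OI without overlap. It was at 0.416 ± 0.064 FPKM with CM and 0.551 ± 0.044 FPKM with CM + 4OI (n = 3 each). Both neighbours were named after their values were seen. Among tested genes, groups without overlap were lower with 4OI in 17.8% and higher in 31.2%.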
